A study of Mus musculus with 12 samples.

Results

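The nuclear genes of respiratory complex III, cytochrome c, complex IV (cytochrome c oxidase) and ATP synthase were followed across 12 mouse hearts. Gene symbols beginning with Uqcr, Cox4 to Cox8 or Atp5, together with Cyc1 and Cycs and without pseudogene symbols ending in -ps, gave 44 candidates among the 31722 symbols of the table. An RPKM (reads scaled by gene length and library size) of at least 0.5 in 6 or more of the 12 hearts kept 43 of them. These were 9 genes of complex III, the cytochrome c gene Cycs, 16 genes of complex IV and 17 genes named for ATP synthase. The candidate left out, Cox7b2, reached that level in 0 hearts. Cox6b2, at about 1 RPKM, was the member nearest to the limit, and every other member had a group mean above 2 RPKM.

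RNA was sequenced from whole heart tissue of C57BL/6J mice. The 6 Control mice and the 6 mice given carbon tetrachloride (CCl4), a liver toxin used to model cirrhosis, were separate animals, and the study asked how cirrhosis bears on the heart. The labels give no sex, age, dose, vehicle or duration. Heart pieces can hold unequal amounts of atrium and ventricle.

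Complex III passes electrons from ubiquinol to cytochrome c, the small soluble carrier of the intermembrane space, and complex IV passes them on to oxygen. Both pump protons, and ATP synthase uses the resulting gradient to make ATP. Each complex is built from a few subunits encoded in mitochondrial DNA and many encoded in the nucleus. Heart muscle is packed with mitochondria and depends on oxidative phosphorylation for nearly all of its ATP. Several complex IV subunits exist as a heart and skeletal muscle form and a widely expressed form: Cox6a2 and Cox6a1, Cox7a1 and Cox7a2, Cox8b and Cox8a.

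Promoters are shown for 5 genes of these isoform pairs and for Cycs, since the pairs are compared directly further on. Sequences came from RefSeq on GRCm38.p6, which matched 34 of the 43 members, and run from 170 bases before to 30 bases after the annotated start. Capitals mark the motifs searched on both strands: the core of the nuclear respiratory factor NRF-1 (GCGCATG), an ETS factor core (CCGGAAG), the YY1 core (AAGATGG), the estrogen-related receptor core (AAGGTCA) and the CCAAT box (CCAAT). The windows lie at chr5:115348929-115349128, minus strand (Cox6a1), chr7:30184001-30184200, plus strand (Cox7a1), chr9:79759824-79760023, minus strand (Cox7a2), chr19:7217587-7217786, minus strand (Cox8a), chr7:140900417-140900616, minus strand (Cox8b) and chr6:50566540-50566739, minus strand (Cycs).
Cox6a1: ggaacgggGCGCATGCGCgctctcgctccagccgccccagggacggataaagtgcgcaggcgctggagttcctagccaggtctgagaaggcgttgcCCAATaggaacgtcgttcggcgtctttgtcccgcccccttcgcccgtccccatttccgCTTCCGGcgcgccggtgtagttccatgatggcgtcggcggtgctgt
Cycs: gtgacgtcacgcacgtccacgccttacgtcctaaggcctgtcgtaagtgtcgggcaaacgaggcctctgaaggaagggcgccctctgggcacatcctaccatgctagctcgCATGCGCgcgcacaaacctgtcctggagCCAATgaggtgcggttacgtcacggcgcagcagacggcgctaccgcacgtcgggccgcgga
Cox8a: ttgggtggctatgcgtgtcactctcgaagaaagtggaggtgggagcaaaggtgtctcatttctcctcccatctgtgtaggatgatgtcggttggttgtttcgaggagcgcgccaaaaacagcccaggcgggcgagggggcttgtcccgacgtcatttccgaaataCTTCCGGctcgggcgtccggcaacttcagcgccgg
Cox7a2: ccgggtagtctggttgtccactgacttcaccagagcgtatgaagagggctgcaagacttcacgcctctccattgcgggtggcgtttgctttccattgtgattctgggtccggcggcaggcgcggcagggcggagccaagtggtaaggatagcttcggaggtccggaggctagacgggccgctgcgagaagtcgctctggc
Cox7a1: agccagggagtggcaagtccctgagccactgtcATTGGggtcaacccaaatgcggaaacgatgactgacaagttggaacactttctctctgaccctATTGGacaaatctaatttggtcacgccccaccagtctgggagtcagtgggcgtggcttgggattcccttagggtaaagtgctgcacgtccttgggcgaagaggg
Cox8b: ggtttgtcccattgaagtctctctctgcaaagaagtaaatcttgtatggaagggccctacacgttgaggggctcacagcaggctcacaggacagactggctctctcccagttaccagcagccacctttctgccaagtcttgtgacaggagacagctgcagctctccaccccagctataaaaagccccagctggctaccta
Cox6a1 held the NRF-1 core on both strands in one overlapping run, with a CCAAT box and an ETS core nearer the start. Cycs held an NRF-1 core and a CCAAT box, and Cox8a an ETS core. Cox7a1, the muscle form, held the CCAAT box at a pair of positions, and none of the motifs was found in the windows printed for Cox7a2 and Cox8b. In the full 300-base windows the NRF-1 core was found in 8 of 34 member promoters (23.5%), against 4.04% of all 27025 promoters and 7.32% of the promoters of expressed genes. The CCAAT box was found in 19 members (55.9%, against 37.9% and 38.5%), and the ETS core in 9 (26.5%, against 9.12% and 18.4%). The YY1 core and the estrogen-related receptor core were found in 4 members each (11.8%), against 6.48% and 4.66% of all promoters and 7.53% and 3.08% of those of expressed genes. A match of letters is a description and not evidence of binding.

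The libraries held between 26361246 and 63377322 steps of the RPKM scale, a relative measure of depth. Cardiomyocyte markers were strongly expressed in every heart, at a summed level of 27799 to 34850 RPKM in Control against 19376 to 29590 RPKM in CCl4 hearts. Atrial markers varied widely in both groups, from 608 to 15078 RPKM in Control and from 834 to 11754 RPKM in CCl4 hearts. Each of the 6 markers was above 0 in at least 1 heart. CCl4 replicate 3 stood apart for the genes described here. It was the lowest of all 12 hearts for 37 of the 43 members, and the summed level of the members was 8002 RPKM there against 10419 to 14452 RPKM in the other 11 hearts. The same heart had the lowest cardiomyocyte sum (19376 RPKM, against 27264 RPKM or more in each other CCl4 heart, with 7 of 8 markers lower in CCl4 overall). Its fibroblast sum was the highest (593 RPKM, against 97.5 to 348 RPKM in the other CCl4 and 88.8 to 239 RPKM in the Control hearts), and so was its macrophage sum (96.7 RPKM, against 14.6 to 51.9 RPKM and 19.0 to 25.8 RPKM). Its atrial sum was 9642 RPKM, towards the upper end of the CCl4 range given above. The summed endothelial markers separated the groups, at 125 to 155 RPKM in Control hearts and 78.7 to 119 RPKM with CCl4. Of single genes, 0.724% did so with CCl4 lower. The endothelial markers were lower for 5 of 5 genes, where 65.7% of all genes were lower. Smooth muscle and pericyte markers were lower for 7 of 7 genes, at a sum of 372 to 505 RPKM and 304 to 424 RPKM. The highest CCl4 value was that of replicate 3 and the other 5 reached 359 RPKM. With all 6 CCl4 hearts included, fibroblast (7 of 7), macrophage (5 of 5) and red cell markers (5 of 5) were higher in CCl4, against 34.3% of all genes. The sums of the other 5 CCl4 hearts overlapped those of Control for each of these lists. For red cell markers they were 157 to 244 RPKM, against 116 to 235 RPKM in Control. Of 5 atrial markers tested, 4 were lower and 1 higher. A fit with an atrial marker covariate is given further on. The part of the other cell type markers in the results was not tested. In whole tissue, fewer cells of a type and less RNA per cell cannot be told apart. From here on, values without CCl4 replicate 3 follow those with it.

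**Figure D1:**
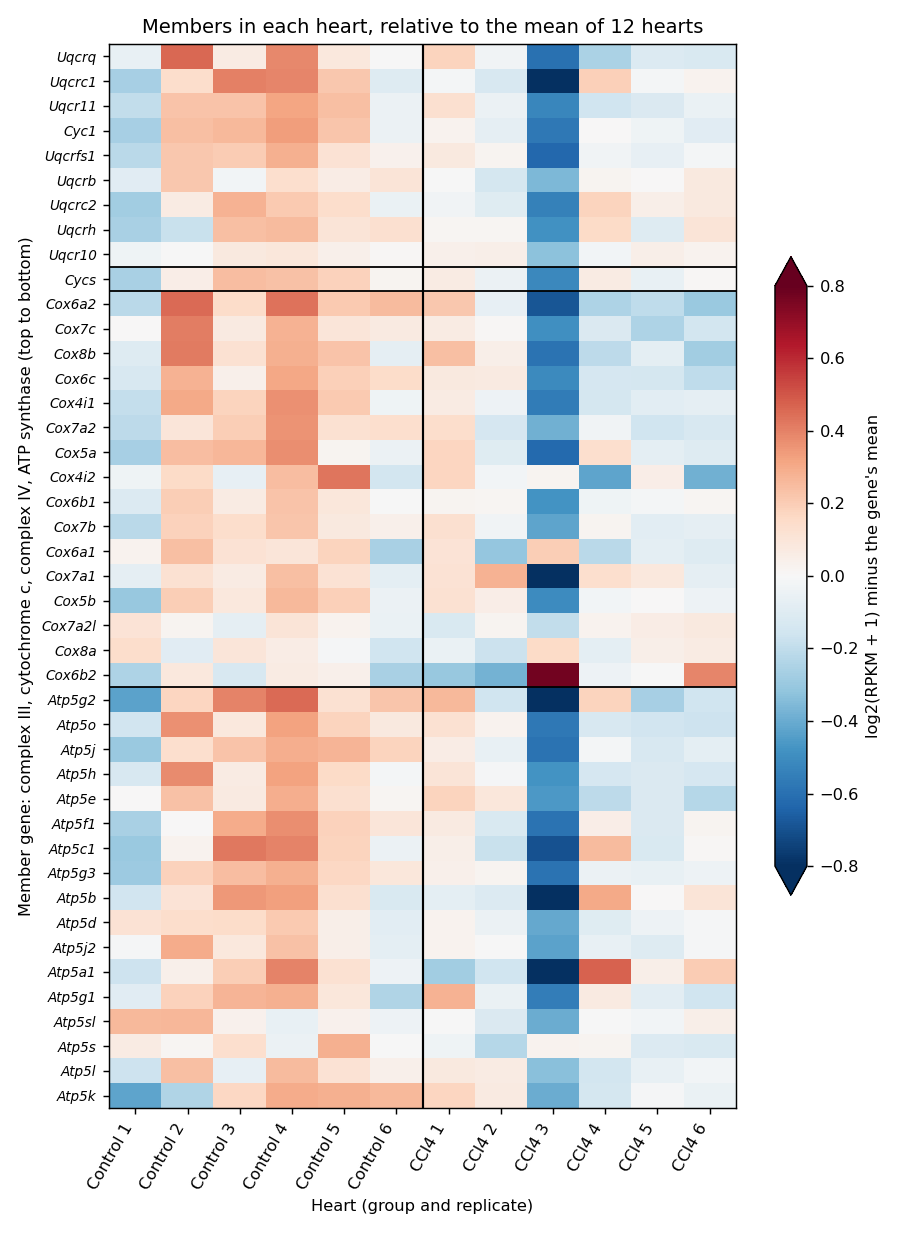
Heat map of the 43 members (rows, by complex) in the 12 hearts (columns); colour is log2(RPKM + 1) minus the mean of the gene over all hearts. CCl4 replicate 3 is blue in nearly every row, while Cox6b2, Cox8a and Cox6a1 are red there, and Control replicates 2 to 5 are mostly red.

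Subunit mRNAs of all 3 complexes lay slightly lower in CCl4 hearts, by a median of 0.19 on the log2 scale, and no single gene passed the test. With limma on log2(RPKM + 1), 0 of 43 members were called at a Benjamini-Hochberg adjusted p under 0.05, as were 0 of all 14087 genes tested (0.0%). The smallest adjusted p among members was 0.35, for Cox6a2, and the smallest over all genes was 0.0731. The log2 fold change, taken as CCl4 minus Control after adding 1 to each RPKM, was below 0 for 42 of 43 members, against 65.7% of all genes. Its median was -0.19 over members and -0.05 over all genes. By complex the median was -0.21 for complex III, -0.17 for complex IV and -0.21 for ATP synthase. Before adjustment, limma gave p under 0.05 on the lower side for 9 members (20.9%), against 8.58% of genes, and on the higher side for 0 members. All 6 CCl4 hearts lay below the Control median for 21 of 43 members, against 11.1% of genes. The groups separated without overlap, with CCl4 lower, for 0 members, against 0.724% of genes.

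These shares moved with single hearts. Without CCl4 replicate 3 the median was -0.12 for members and -0.08 for all genes, so the members' offset from all genes went from -0.14 to -0.03. The medians were then -0.11 for complex III, -0.14 for complex IV and -0.13 for ATP synthase. Of the members, 41 of 43 were lower (76.0% of genes) and 3 had an unadjusted limma p under 0.05 (14.2% of genes). The members' share at that p was then below that of all genes. Leaving out Control replicate 1, the Control heart with the lowest members (median deviation from the mean of the 12 hearts -0.17) and the highest atrial markers (15078 RPKM), gave 17 members at that p, against 10.7% of genes, and an offset of -0.19. With both hearts left out, a pair chosen after seeing the data, 15 members had such a p, against 16.0% of genes, and the median was -0.17 for members and -0.08 for all genes. When limma weighted the libraries by their own spread, from 0.258 for CCl4 replicate 3 to 5.70 for CCl4 replicate 5, 14 of 43 members were called lower, against 10.5% of genes.

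The members' place among other genes also depended on how the libraries were scaled. Mitochondrial RNA made up 64.3% to 72.4% of the summed RPKM in Control against 66.6% to 76.9% in CCl4 hearts. Here this share stands beside the median deviation of the members in each heart. The lowest share, 64.3% in Control replicate 4, went with the highest median deviation of members from the mean of the 12 hearts (0.28). CCl4 replicate 3 and Control replicate 1, each at 67.5%, had the lowest deviations (-0.51 and -0.17). CCl4 replicate 1, at 73.9%, was at 0.07, CCl4 replicate 2, at 76.9%, at -0.05 and CCl4 replicate 5, at 71.0%, at -0.08. Control replicate 6, at 72.4%, was at -0.02. Control replicates 2, 3 and 5, at 66.1%, 65.0% and 66.5%, were at 0.19, 0.14 and 0.13. CCl4 replicates 4 and 6, at 67.6% and 66.6%, were at -0.03 and -0.05. The part of mitochondrial RNA in the level of single hearts was not tested. Once this RNA was left out when scaling, the median was -0.10 for members and 0.02 for all genes, 38 of 43 members were lower (43.7% of genes) and 0 had an unadjusted limma p under 0.05 on the lower side (4.13% of genes). Median-of-ratios scaling gave -0.12 for members and -0.00043 for all genes, 39 members lower (50.1% of genes) and 0 at that p (5.37% of genes). TPM scaling gave -0.27 and -0.10, 42 members lower (76.4% of genes) and 16 at that p (10.4% of genes). Under these scalings and quantile normalization the median of the members minus that of all genes was between -0.17 and -0.11, with all 12 hearts included. The labels give no sex, and hearts were also compared within those with Xist above 1 RPKM (4 against 4) and those below (2 against 2): the median was -0.21 for members and -0.0063 for all genes in the former, and -0.22 and -0.13 in the latter. Together these comparisons hold all 12 hearts, so CCl4 replicate 3 is in 1 of them, and values without it are not given for this split.

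**Figure D2:**
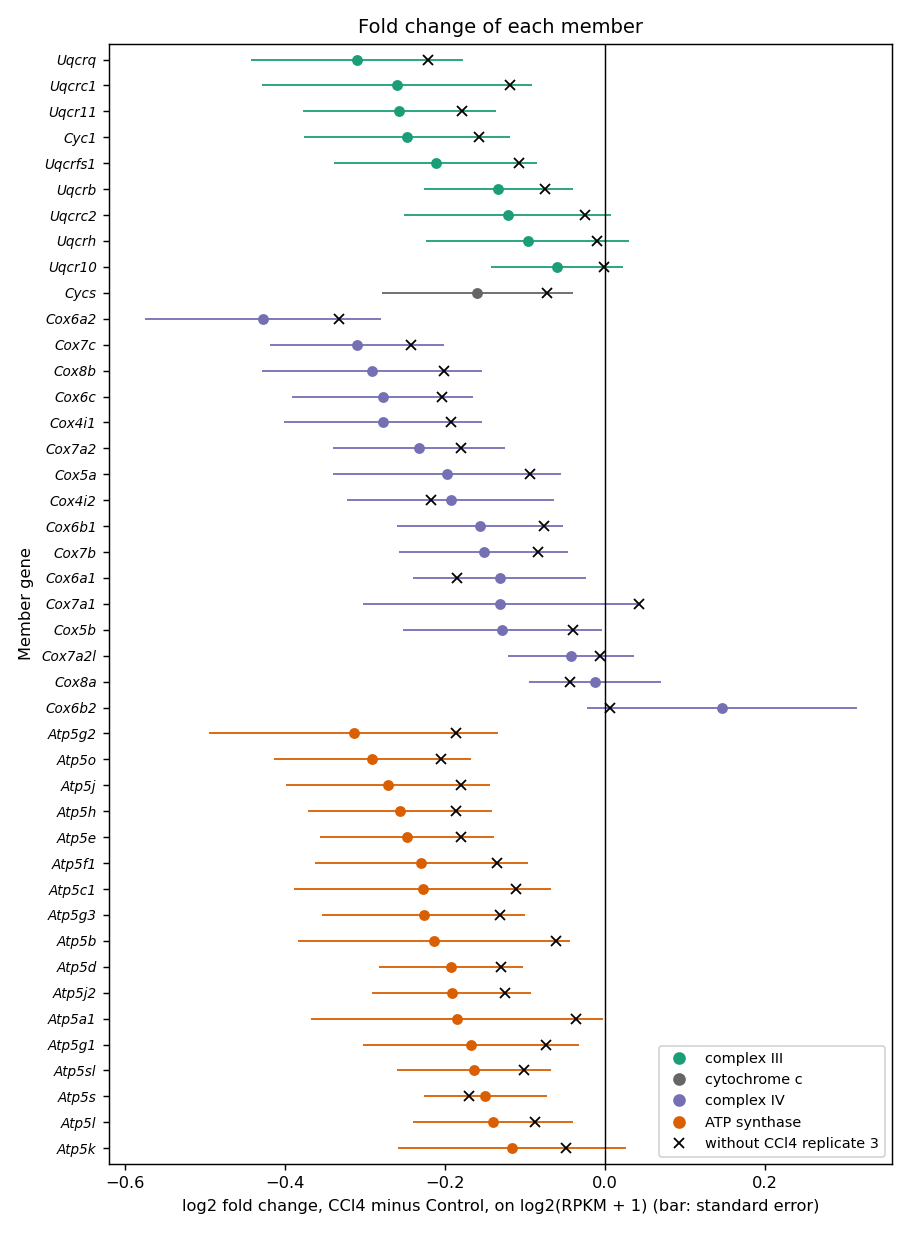
Log2 fold change of each member (CCl4 minus Control, points, with standard error from limma, n = 6 hearts each), coloured by complex; crosses give the value without CCl4 replicate 3. All points but Cox6b2 lie below 0, and nearly all crosses lie closer to 0, with Cox7a1 crossing it.

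In complex III, 9 of 9 nuclear members had a lower mean in CCl4 hearts, 0 were called and 1 had an unadjusted limma p under 0.05. The subunits that carry the redox centres, Cyc1 (cytochrome c1) and Uqcrfs1 (the Rieske iron-sulfur protein), had log2 fold changes of -0.25 and -0.21. Cyc1 was at 70.6, 100.4 and 108 RPKM in Control (lowest, median and highest heart) and at 56.9, 82.1 and 87.1 RPKM in CCl4 hearts (SE 0.13, limma adjusted p = 0.534). All 6 CCl4 hearts lay below the Control median for Cyc1, and the ranges overlapped, with Control replicates 1 and 6 below several CCl4 hearts. Uqcrfs1 was at 239 ± 28.1 RPKM in Control against 207 ± 32.6 RPKM in CCl4 hearts (SD, n = 6 hearts per group). With CCl4 replicate 3 left out, the differences were -0.16 for Cyc1 and -0.11 for Uqcrfs1. The core proteins Uqcrc1 and Uqcrc2, relatives of the mitochondrial processing peptidase, differed by -0.26 and -0.12, and by -0.12 and -0.03 without CCl4 replicate 3.

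The 5 small subunits of complex III ranged from -0.31 to -0.06. Uqcrq, a small membrane subunit beside cytochrome b, had the lowest p of the complex: 135, 149 and 194 RPKM in Control against 93.1, 130.2 and 159.7 RPKM in CCl4 hearts (-0.31, SE 0.13, unadjusted p = 0.0353 and adjusted p = 0.436 with limma). Of the CCl4 hearts only replicate 1 lay above the Control median of Uqcrq. Uqcr11 was at 383, 515 and 547 RPKM and at 306, 414 and 481 RPKM (-0.26, SE 0.12), with all 6 CCl4 hearts below the Control median. Uqcrb, the highest-level gene of the complex, which contributes to the ubiquinone site, was at 984, 1111 and 1219 RPKM in Control against 818, 1049.6 and 1109.8 RPKM in CCl4 hearts (-0.13, SE 0.09). Its 6 CCl4 hearts were also all below the Control median, by a smaller margin. Uqcrh, the hinge protein that contacts cytochrome c1, was at 672 ± 97.4 and 629 ± 91.4 RPKM (-0.10). Uqcr10 hardly differed, at 74.4 ± 2.54 and 71.6 ± 6.89 RPKM (-0.06), and 4 of 6 CCl4 hearts lay above its Control median. After leaving out CCl4 replicate 3, the values were -0.22 for Uqcrq, -0.18 for Uqcr11, -0.07 for Uqcrb, -0.01 for Uqcrh and -0.0006 for Uqcr10. The sign of Uqcr10 turned under median-of-ratios scaling (0.01), as did that of Uqcrh when mitochondrial RNA was left out in scaling (0.00206).

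Cycs, the somatic cytochrome c, was at 119.8, 156 and 170.4 RPKM in Control against 100.2, 142 and 150.3 RPKM in CCl4 hearts (-0.16, SE 0.12, limma adjusted p = 0.679). All 6 CCl4 hearts were below the Control median, the groups overlapped, and without CCl4 replicate 3 the difference was -0.07. Transcripts of 51 other genes in GENCODE M21 shared at least 100 bases at 95% identity or more with Cycs, so its reads may be divided, and repeats can be part of these matches. Such a match was found for 17 of the 42 members searched.

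Complex IV held the members with the lowest p-values, and also those that differed least. Of its 16 genes, 15 had a lower mean in CCl4 hearts and 5 of the 9 members with an unadjusted limma p under 0.05 belonged to it. The subunits with a single form in the heart, Cox5a, Cox5b, Cox6c, Cox7b and Cox7c, ranged from -0.31 to -0.13. Cox7c, a small membrane subunit, was at 97.2, 103 and 129 RPKM in Control against 68.6, 88.3 and 101 RPKM in CCl4 hearts (-0.31, SE 0.11, unadjusted p = 0.0129 and adjusted p = 0.356 with limma). Every CCl4 heart lay below the Control median of Cox7c, and without CCl4 replicate 3 the difference was -0.24. Cox6c was at 254, 312 and 344 RPKM and at 195, 253 and 293 RPKM (-0.28, SE 0.11, adjusted p = 0.415 with limma), again with all 6 CCl4 hearts below the Control median. Reads of Cox7c can be shared with 4 annotated pseudogenes and those of Cox6c with 2, and Cox6c exons overlap those of Vps13b on the opposite strand over 250 bases. Cox5b, the zinc-binding subunit on the matrix side, was at 840.1 ± 115 and 769 ± 107 RPKM (-0.13). Cox7b was at 743 ± 77.3 and 669.8 ± 80.7 RPKM (-0.15) and Cox5a at 29.2 ± 4.80 and 25.4 ± 4.71 RPKM (-0.20). When CCl4 replicate 3 was left out, the values were -0.20 for Cox6c, -0.04 for Cox5b, -0.08 for Cox7b and -0.09 for Cox5a. Cox7a2l, a relative of Cox7a2 studied for its part in supercomplexes and known to be shortened in C57BL/6J mice, was at 53.7 ± 2.91 and 52.2 ± 4.06 RPKM (-0.04), and 4 of 6 CCl4 hearts lay above its Control median. Its sign turned under median-of-ratios scaling (0.03).

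**Figure D3:**
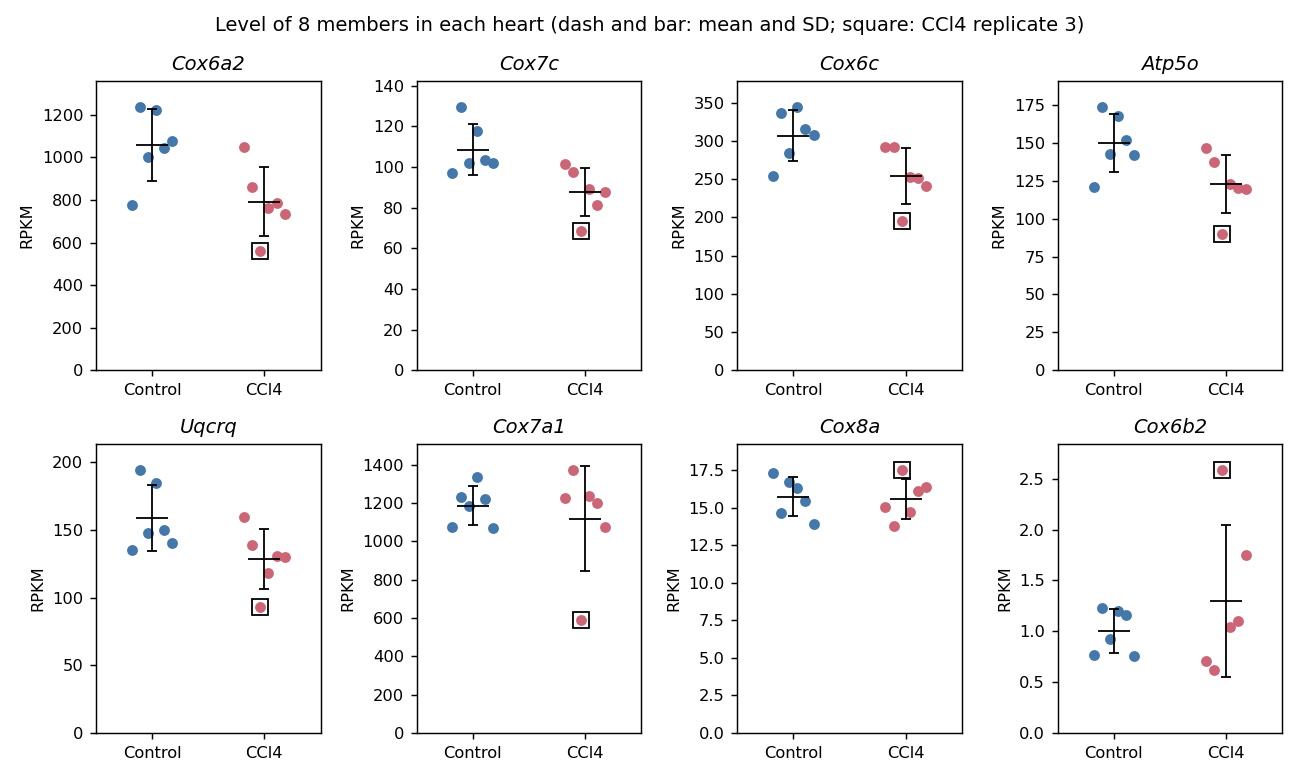
RPKM of 8 members in each heart (points; dash and bar are mean and SD, n = 6; the square marks CCl4 replicate 3; axes start at 0). Cox6a2, Cox7c, Cox6c and Atp5o have every CCl4 heart below the Control median (Uqcrq has 5 of 6), while CCl4 replicate 3 is the lowest heart for Cox7a1 and the highest for Cox8a and Cox6b2.

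The heart forms of complex IV were its dominant isoforms in all 12 hearts. Cox6a2 (chromosome 7, 128205435 to 128206387 on GRCm38) was at 776, 1060.4 and 1235 RPKM in Control against 561, 773 and 1049 RPKM in CCl4 hearts. Its log2 fold change of -0.43 (SE 0.15, unadjusted p = 0.0121 with limma, adjusted p = 0.35) was the lowest of the 43 members. All 6 CCl4 hearts lay below its Control median, Control replicate 1 lay among them, and without CCl4 replicate 3 the value was -0.33. Its widely expressed partner Cox6a1 was at 7.68, 10.2 and 11.3 RPKM in Control against 7.40, 8.77 and 10.9 RPKM in CCl4 hearts (-0.13, SE 0.11), with 4 of 6 CCl4 hearts below the Control median, and at -0.18 without CCl4 replicate 3.

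Cox7a1, the heart form of subunit 7a and the highest-level gene of complex IV, was at 1069, 1204 and 1339 RPKM in Control against 592, 1213 and 1373 RPKM in CCl4 hearts (-0.13, SE 0.17, limma adjusted p = 0.842). Its CCl4 hearts were split evenly around the Control median, 3 above and 3 below. Without CCl4 replicate 3 the difference was 0.04. Cox7a2, the widely expressed form, was at 31.6, 40.3 and 47.4 RPKM and at 28.0, 33.4 and 40.6 RPKM (-0.23, SE 0.11, unadjusted p = 0.0485 and adjusted p = 0.485 with limma), with 5 of 6 CCl4 hearts below the Control median, and -0.18 without CCl4 replicate 3.

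Cox8b, the heart form of subunit 8, was at 254, 309 and 365 RPKM in Control against 181, 247 and 323 RPKM in CCl4 hearts (-0.29, SE 0.14, limma adjusted p = 0.5). Only CCl4 replicate 1 lay above the Control median of Cox8b. Cox8a, its widely expressed partner, was at 13.9, 15.9 and 17.3 RPKM and at 13.8, 15.6 and 17.5 RPKM (-0.01, SE 0.08), 3 CCl4 hearts on each side. With CCl4 replicate 3 left out, the values were -0.20 for Cox8b and -0.04 for Cox8a. For Cox8a the sign depended on the scaling, being 0.06 with median of ratios.

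The remaining isoform pairs have no heart-specific form. Cox4i1, the main form of the regulatory subunit 4, was at 434, 569 and 641 RPKM in Control against 336, 471 and 519.5 RPKM in CCl4 hearts (-0.28, SE 0.12, unadjusted p = 0.0419 and adjusted p = 0.46 with limma), with all 6 CCl4 hearts below the Control median. Cox4i2, the form known from lung and low oxygen, was at 10.1, 11.9 and 15.6 RPKM and at 8.19, 11.3 and 12.9 RPKM (-0.19, SE 0.13). Its levels overlapped widely, and CCl4 replicate 3 was in the middle of the 12 hearts. Cox6b1, which faces cytochrome c, was at 209.5, 239 and 265 RPKM and at 162, 226 and 230.0 RPKM (-0.16, SE 0.10), with every CCl4 heart below the Control median. Cox6b2, the testis form, was at 0.753, 1.04 and 1.23 RPKM and at 0.614, 1.07 and 2.59 RPKM (0.15, SE 0.17), and its highest value was that of CCl4 replicate 3. Without that heart the values were -0.19 for Cox4i1, -0.22 for Cox4i2, -0.08 for Cox6b1 and 0.006 for Cox6b2.

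Ratios of isoforms within a heart do not depend on the scaling of the library. The heart forms made up 99.1% (Cox6a2), 96.7% (Cox7a1) and 95% (Cox8b) of the RPKM of their pair in Control and 98.8%, 96.9% and 93.9% in CCl4 hearts. The mean log2 ratio of Cox6a2 to Cox6a1 was 6.73 ± 0.28 in Control and 6.45 ± 0.41 in CCl4 hearts (SD, n = 6 hearts per group; two-sided exact permutation p = 0.201, 5 of 6 CCl4 hearts below the Control median). That of Cox8b to Cox8a was 4.27 ± 0.26 and 3.99 ± 0.39 (exact permutation p = 0.167, 4 of 6 below). The ratio of Cox7a1 to Cox7a2 went the other way, 4.89 ± 0.13 and 5.0 ± 0.33 (exact permutation p = 0.491, 5 of 6 above). After Benjamini-Hochberg adjustment over the 7 pairs the exact permutation p was 0.688 for each pair, where 6 hearts against 6 allow a p as low as 0.00216 before adjustment.

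CCl4 replicate 3 had the lowest value of all 12 hearts in each of these 3 ratios, at 5.68, 3.37 and 4.40. Without it the differences were -0.13 for Cox6a2 to Cox6a1, -0.16 for Cox8b to Cox8a and 0.23 for Cox7a1 to Cox7a2. The last had a two-sided exact permutation p of 0.0303, or 0.212 when adjusted over the 7 pairs, with the 5 remaining CCl4 hearts all above the Control median. The minor forms Cox4i2 and Cox6b2 made up 2.19% and 0.414% of their pairs in Control and 2.33% and 0.642% in CCl4 hearts (exact permutation p = 0.688 and 0.413). CCl4 replicate 3 had the highest share of both. Without it their log2 ratio differed by -0.04 and 0.06.

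**Figure D4:**
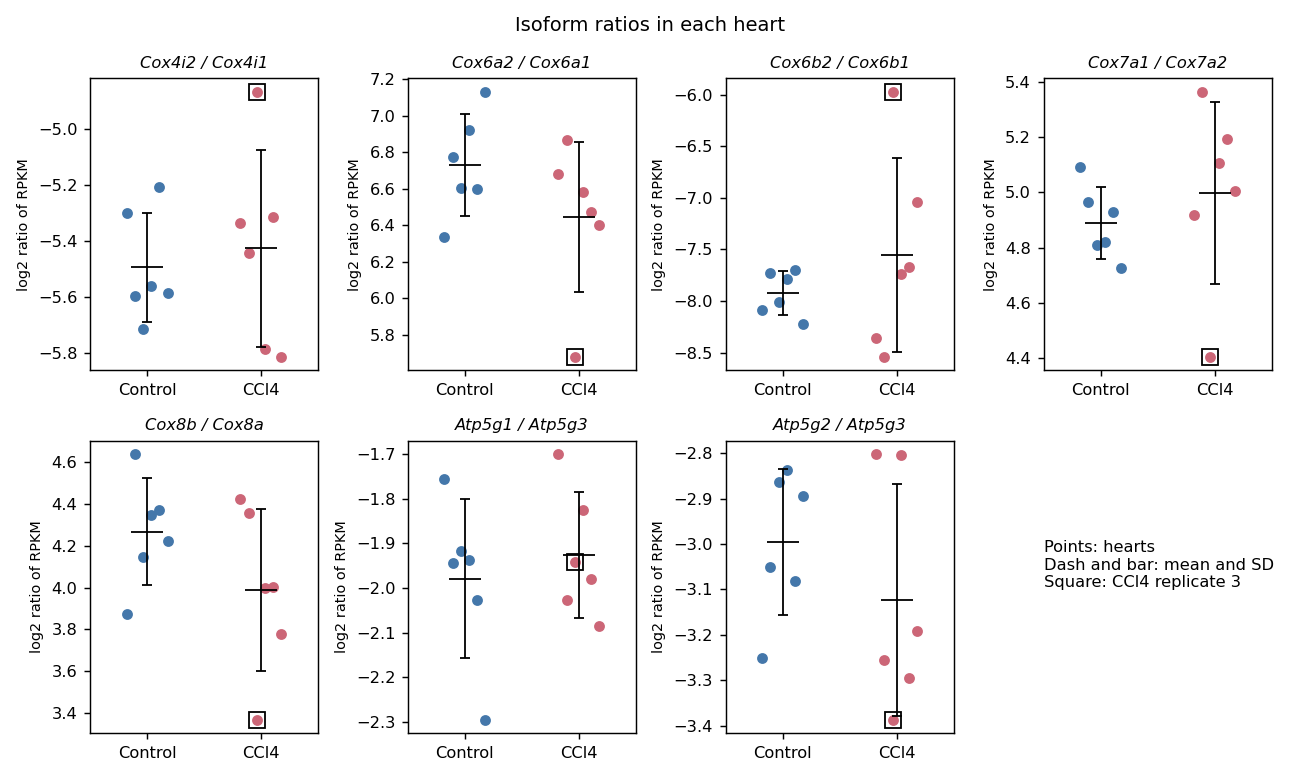
Log2 ratio of RPKM between the 2 isoforms of each pair in every heart (points; dash and bar are mean and SD, n = 6; the square marks CCl4 replicate 3; axes do not start at 0). CCl4 replicate 3 is lowest for Cox6a2 to Cox6a1 (5.68), Cox7a1 to Cox7a2 (4.40) and Cox8b to Cox8a (3.37), and the other hearts of the groups overlap.

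In ATP synthase, 17 of 17 genes had a lower mean in CCl4 hearts, 0 were called and 3 had an unadjusted limma p under 0.05. The catalytic head is formed by Atp5a1 (alpha) and Atp5b (beta) around the rotating stalk of Atp5c1 (gamma), Atp5d (delta) and Atp5e (epsilon), and these 5 ranged from -0.25 to -0.18. Atp5b was at 402 ± 58.8 RPKM in Control against 354 ± 84.8 RPKM in CCl4 hearts, and Atp5a1 at 295 ± 40.8 and 268 ± 78.4 RPKM (SD, n = 6 hearts per group). The highest of all 12 hearts for Atp5a1 was a CCl4 heart, replicate 4. Atp5e, the smallest subunit of the stalk, was at 35.9, 38.4 and 43.9 RPKM and at 25.8, 31.8 and 40.5 RPKM (-0.25, SE 0.11, unadjusted p = 0.0396 and adjusted p = 0.448 with limma). For Atp5e, 5 of 6 CCl4 hearts lay below the Control median. Atp5c1 and Atp5d differed by -0.23 and -0.19. After leaving out CCl4 replicate 3, the 5 genes ranged from -0.18 to -0.04.

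The peripheral stalk, which holds the head still, had log2 fold changes of -0.29 to -0.23 in its 4 genes. Atp5o, the oligomycin sensitivity-conferring protein that caps the head, was at 121, 147 and 173 RPKM in Control against 89.9, 122 and 146 RPKM in CCl4 hearts (-0.29, SE 0.12, unadjusted p = 0.0341 and adjusted p = 0.435 with limma). Atp5h, subunit d and the highest-level gene of the complex, was at 1212, 1430.4 and 1723 RPKM and at 950.3, 1217 and 1424 RPKM (-0.26, SE 0.12, adjusted p = 0.467 with limma). For both genes all 6 CCl4 hearts lay below the Control median, and CCl4 replicate 3 was lowest. Atp5j (coupling factor 6) was at 593 ± 81.0 and 492 ± 70.9 RPKM (-0.27), and Atp5f1 (subunit b) at 274 ± 41.4 and 234 ± 36.3 RPKM (-0.23). When CCl4 replicate 3 was left out, the 4 genes ranged from -0.21 to -0.13. Exons of Atp5o overlap those of Donson on the same strand over 287 bases, Atp5j overlaps Gabpa on the opposite strand over 397 bases, and Atp5h shares sequence with 4 pseudogenes.

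Atp5g1, Atp5g2 and Atp5g3 encode the same mature c subunit of the membrane ring with different import sequences. Atp5g3 was at 54.5, 75.6 and 81.4 RPKM in Control against 44.0, 64.8 and 68.7 RPKM in CCl4 hearts (-0.23, SE 0.13), with all 6 CCl4 hearts below the Control median. Atp5g1 was at 14.5, 19.1 and 21.3 RPKM and at 11.4, 16.4 and 21.1 RPKM (-0.17, SE 0.14), and Atp5g2 at 5.72, 9.38 and 11.4 RPKM and at 4.20, 7.10 and 9.84 RPKM (-0.31, SE 0.18). For both, 5 of 6 CCl4 hearts were below the Control median, and Atp5g2 was lowest in CCl4 replicate 3 and next in Control replicate 1. Without CCl4 replicate 3 the 3 genes ranged from -0.19 to -0.07. The log2 ratio to Atp5g3 was -1.98 ± 0.18 and -1.93 ± 0.14 for Atp5g1 (exact permutation p = 0.608) and -3.00 ± 0.16 and -3.12 ± 0.25 for Atp5g2 (exact permutation p = 0.307). Transcripts of 20 other genes shared at least 100 bases at 95% identity or more with Atp5g1, and those of 2 with Atp5g2. The same search found 0 for Atp5g3, so the reads of Atp5g1 and Atp5g2 may be divided.

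The supernumerary membrane subunits Atp5j2 (f), Atp5k (e) and Atp5l (g), the last 2 of which help ATP synthase to form dimers, ranged from -0.19 to -0.12. Atp5k was at 423 ± 83.5 and 386 ± 50.7 RPKM, and its lowest heart was Control replicate 1. Atp5j2 was at 81.6 ± 8.27 and 71.4 ± 7.81 RPKM and Atp5l at 32.8 ± 3.86 and 29.6 ± 3.13 RPKM. Each of the 3 genes had all 6 CCl4 hearts below the Control median, and without CCl4 replicate 3 they ranged from -0.13 to -0.05. Atp5s and Atp5sl carry the name but are not structural subunits. They differed by -0.15 and -0.16, from 2.73 and 8.32 RPKM in Control, and Atp5s was one of the few genes for which CCl4 replicate 3 was not low (9th lowest of 12). Without it they differed by -0.17 and -0.10.

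Subunits of the same complexes that lack these name patterns gave values in the same range. Ndufa4, now counted with complex IV, was at 139 ± 11.0 RPKM in Control against 116 ± 18.9 RPKM in CCl4 hearts (-0.27, limma adjusted p = 0.435). Usmg5 and 2010107E04Rik, small ATP synthase subunits, were at 162 ± 11.4 and 141 ± 11.7 RPKM (-0.20) and at 454 ± 39.6 and 410.2 ± 42.0 RPKM (-0.15). Without CCl4 replicate 3, which was the lowest heart for all 3, the values were -0.18, -0.16 and -0.09.

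The mitochondrially encoded partners lay on the other side. All 6 genes had a higher mean in CCl4 hearts (median 0.26), against 34.3% of genes. Of the 6, 0 were called and 4 had an unadjusted limma p under 0.05 on the higher side, against 1.6% of genes. These 4 were mt-Cytb, mt-Co1 and the low genes mt-Co2 and mt-Atp8, whose values are uncertain as described below. With CCl4 replicate 3 left out, the 6 were still higher (median 0.28), 4 of them at that p, against 154 of 14087 genes. On this scale mitochondrial and nuclear genes share 1 total, so their directions are not independent. The cytochrome b gene mt-Cytb of complex III was at 27824, 31501 and 38356 RPKM in Control against 34629.8, 37704 and 46359 RPKM in CCl4 hearts (0.26, SE 0.10, adjusted p = 0.373 with limma). All 6 CCl4 hearts were above its Control median while the ranges overlapped. The catalytic subunit mt-Co1 of complex IV, named after its values were seen, was at 20483 ± 1622 and 24007 ± 2754 RPKM (0.22). The other 4 genes were listed at only 1.96 to 6.63 RPKM in Control, and nuclear gene models that copy them can take their reads, so their values are uncertain. Among these, mt-Co2 was at 1.56, 2.03 and 2.27 RPKM in Control against 2.45, 2.66 and 3.79 RPKM in CCl4 hearts (0.40, SE 0.10, unadjusted p = 0.00167 and adjusted p = 0.229 with limma), without overlap (0.0355% of genes on the higher side), and mt-Atp8 was at 5.22 ± 1.02 and 8.45 ± 3.28 RPKM (0.55).

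Assembly factors and regulators of the 3 complexes had a median near that of all genes. Of 37 tested, 29 were lower (78.4%, against 65.7% of genes) and 8 higher, and 0 were called. An unadjusted limma p under 0.05 was found for 4 (10.8%, against 8.58% of genes), all on the lower side. Their median was -0.07, against -0.19 for the subunits and -0.05 for all genes. Several assembly factors were low, such as Coa4 (0.811 RPKM in Control) and Lyrm7 (1.47 RPKM). The 1 added to each RPKM makes log2 fold changes of low genes smaller, so these medians are not fully comparable. Without CCl4 replicate 3, 28 were lower (76.0% of genes) and 9 higher, and 1 had such a p (14.2% of genes). The median was then -0.06, against -0.12 for the subunits and -0.08 for all genes. Tmem70, an assembly factor of ATP synthase, was at 14, 17.9 and 20.5 RPKM in Control against 12, 15 and 16.5 RPKM in CCl4 hearts (-0.26, SE 0.10, adjusted p = 0.402 with limma), and every CCl4 heart was below the Control median. Coa7 and Cox20, both needed to assemble complex IV, were at 1.89 ± 0.239 and 1.51 ± 0.221 RPKM (-0.20) and at 74.4 ± 8.03 and 63.0 ± 6.59 RPKM (-0.23). After leaving out CCl4 replicate 3, the values were -0.21 for Tmem70, -0.16 for Coa7 and -0.26 for Cox20. Atpif1, which encodes the inhibitor that blocks ATP hydrolysis by ATP synthase, had the highest log2 fold change of the list and was named after its values were seen. It was at 187, 208 and 226 RPKM in Control against 190.3, 245 and 312 RPKM in CCl4 hearts (0.23, SE 0.12, adjusted p = 0.529 with limma), with 5 of 6 CCl4 hearts above the Control median. The highest heart for Atpif1 was CCl4 replicate 3, the heart that was lowest for 37 of the 43 members, and without it the value was 0.15.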

How the data were processed

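Messenger RNA from 6 Control and 6 CCl4 hearts was sequenced with a stranded kit, per the labels' protocols. Trimmomatic 0.36, featureCounts and Subread 1.5.1 were used with GRCm38, per the submitters' processing notes. The aligner, annotation release and strand setting are not given in the sources used here. As deposited by the authors, values were RPKM, with 31722 gene symbols and 1 column per heart. Exon lengths of GENCODE M21 (30270 symbols matched) showed the steps behind these values, with 92.6% to 93.8% of low values within 0.05 of a whole step, and gave the relative depths.

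Groups came from the sample titles. The members and lists were chosen with earlier results of these data known. The 14087 genes that reached 0.5 RPKM in 6 or more hearts were fitted on log2(RPKM + 1) with limma 3.58.1 (R 4.3.3), using lmFit and eBayes with a trend, no covariate, with Benjamini-Hochberg adjustment over all genes. This scale understates changes of low genes, and levels of different genes depend on the lengths the authors used. Log2 ratios of isoforms were compared by an exact two-sided permutation test (924 splits), adjusted over 7 pairs. P-values refer to the spread between these mice. Values in hearts are given for the isoform pairs, the 3 lowest p-values of each complex, Cyc1, Cycs and the highest-level gene of each complex; the other members are given by means or ranges. Of other lists, the 3 lowest p-values were named. Alternatives covered pseudocount, filter, scaling, array weights, a robust fit, a rank test, covariates, a replicate block and hearts left out. The steps were tested on simulated data. Plots were drawn with matplotlib 3.10.9, and tables made with pandas 2.3.3 and numpy 2.4.6 under Python 3.11.15.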

Additional observations from a re-analysis of the deposited data

Results flagged for a closer look

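Each member and each isoform ratio was checked in both groups for a single heart far from the other 5, by Dixon's 95% limit for the gap over the range. Of 100 such groups 19 showed one, where chance gives about 1 in 20, and the members of a heart are not independent of each other. In 16 of the 19 the heart was CCl4 replicate 3, as the lowest of its group. In complex III these were Cyc1 (56.9 RPKM), Uqcr10 (57.8 RPKM), Uqcrc1 (53.2 RPKM) and Uqcrfs1 (142 RPKM), and Cycs was at 100.2 RPKM. In complex IV they were Cox4i1 (336 RPKM), Cox5a (17.1 RPKM), Cox5b (562 RPKM), Cox6b1 (162 RPKM) and Cox7a1 (592 RPKM). In ATP synthase they were Atp5b (203 RPKM), Atp5d (17.95 RPKM), Atp5f1 (166 RPKM), Atp5g3 (44.0 RPKM), Atp5j (355 RPKM) and Atp5j2 (56.3 RPKM). The other 3 were the lowest Control heart, replicate 1, for Atp5g2 (5.72 RPKM), Atp5g3 (54.5 RPKM) and Atp5j (436 RPKM).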

How the results depend on the processing

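Every alternative kept the number of members called at 0 except array weights, with 14 called lower. With an atrial marker covariate 41 of 43 members were lower, against 8344 of 14087 genes. An unadjusted limma p under 0.05 on the lower side was then found for 13 members, against 1241 genes. The median was -0.21 for members and -0.03 for all genes. Over all genes, 770 higher and 1479 lower were called with array weights, 2 and 20 with an atrial marker covariate, 17 and 162 with Control replicate 1 and CCl4 replicate 3 left out, and 1 higher with Control replicate 1 and CCl4 replicate 4, both rich in atrial markers, left out. Leaving out 1 heart at a time gave 0 to 7 genes higher and 0 to 40 lower. The last 2 pairs of hearts were chosen after seeing the data. Of 1160 fold changes of single members under alternatives, 1123 kept direction and call, 14 became called and 23 turned sign. The turned member values given below lay between -0.0287 and 0.0808. In the main fit some of these genes were further from 0, with Cox6b2 at 0.15, Cox7a1 at -0.13 and Uqcrh at -0.10. With median of ratios Uqcr10 was at 0.0134, Cox7a2l at 0.0306 and Cox8a at 0.0578. With quantile normalization Uqcr10 was at 0.0203, Cox7a2l at 0.0134, Cox8a at 0.0486 and Uqcrh at 0.0804. With mitochondrial RNA left out Uqcr10 was at 0.0374, Cox7a2l at 0.0545, Cox8a at 0.0808 and Uqcrh at 0.00206. Array weights gave Cox7a2l 0.0187 and Cox8a 0.0247, and the atrial covariate gave Cox8a 0.00621. Without Control replicate 1 and CCl4 replicate 3, Cox7a2l was at 0.0104, Cox6b2 at -0.0287, Cox7a1 at 0.0149 and the log2 ratio difference of Cox4i2 to Cox4i1 at -0.00571. Without Control replicate 1 and CCl4 replicate 4, Cox8a was at 0.0301. With 1 heart left out, Cox8a ranged from -0.0444 to 0.0209, Cox7a1 from -0.20 to 0.0423, the ratio of Atp5g1 to Atp5g3 from -0.0102 to 0.0974 and that of Cox4i2 to Cox4i1 from -0.0444 to 0.145. The cause was not tested. Same-numbered hearts had correlations from -0.474 to 0.232 in their deviations from the group means. For replicates 2 and 5 the same-numbered heart was the best match, and for the other replicates it was not. Single hearts that stand apart weigh on these correlations, so they cannot decide whether the replicate numbers mark pairs. With the number as a block 0 genes and 0 members were called. An unadjusted limma p under 0.05 on the lower side was found for 3 of 43 members, against 867 of 14087 genes. Depth limits the low members, Cox6b2 and Atp5s, most.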
